A study of Mus musculus with 12 samples.

Results

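ErbB receptors, their ligands and the ErbB inhibitor Errfi1 were followed in mouse neural stem cell (NSC) cultures. The set holds 10 of the 17365 genes with counts, found by symbol: the receptors Egfr, Erbb2, Erbb3 and Erbb4, the ligands Egf, Hbegf, Tgfa, Areg and Nrg1, and Errfi1. Of these, 9 passed the filter on low counts that left 13312 genes for testing, and Areg did not. RNA-seq was made from 12 cultures of 2 wild-type lines, each a single line grown from the subventricular zone of adult mice aged 6 to 8 weeks. ANS4 came from the MF1 strain and BL6 from C57BL/6 mice, and both were used below passage 10. Cultures were kept for 3 days in EGF and FGF2 at 10 ng/ml each (EGF/FGF, proliferating), in BMP4 at 10 ng/ml (BMP, dormant quiescent NSCs or d-qNSCs), or in BMP4 and FGF2 at 10 ng/ml each (BMP/FGF, primed quiescent NSCs or p-qNSCs), with 2 biological replicates of each line in each condition. BMP and EGF/FGF therefore differ in BMP4, EGF and FGF2 at once, whose effects cannot be told apart, BMP/FGF and EGF/FGF differ in BMP4 and EGF, and BMP/FGF and BMP differ in FGF2 alone.

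ErbB receptors are tyrosine kinases that work in pairs. EGFR is activated by EGF, HB-EGF, TGF-alpha and amphiregulin, whereas neuregulin-1 binds ERBB3 and ERBB4, and HB-EGF can also bind ERBB4. ERBB2 has no known ligand and acts as a partner, ERBB3 has little kinase activity of its own, and most ligands are made as membrane precursors that proteases release. In the subventricular zone EGFR marks activated stem cells and their fast dividing progeny, and the transmembrane protein LRIG1 lowers ErbB receptor levels and signaling.

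Library totals lay between 18069052 and 19451818 counts, so that 3 counts, taken as the floor, corresponded to 0.155 to 0.168 CPM (counts scaled to the library total times its TMM factor, which was 0.972 to 1.031). Replicates differed by more than sampling noise in every group, with a chi-square per degree of freedom of 2.13 to 4.71 in 5 groups and 12.3 in BL6 BMP, so each culture was counted as 1 replicate. All 10 NSC markers examined were detected, and their summed level lay at 7348 to 7961 CPM with EGF/FGF, 9244 to 10500 with BMP and 11170 to 11740 with BMP/FGF. The markers did not all move with the sum. In each quiescent condition 7 were higher and 3 lower (Hes5, Nes and Fabp7) than in EGF/FGF, at a false discovery rate under 0.05. Of all tested genes 79.6% passed in BMP and 78.9% in BMP/FGF. The 8 cell cycle genes examined were lower in both quiescent conditions, with sums of 2680 to 3190, 445 to 656.5 and 315 to 332 CPM. Each line is 1 line and the cultures are its replicates, so p-values measure the spread between these cultures and not between animals.

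**Figure D1:**
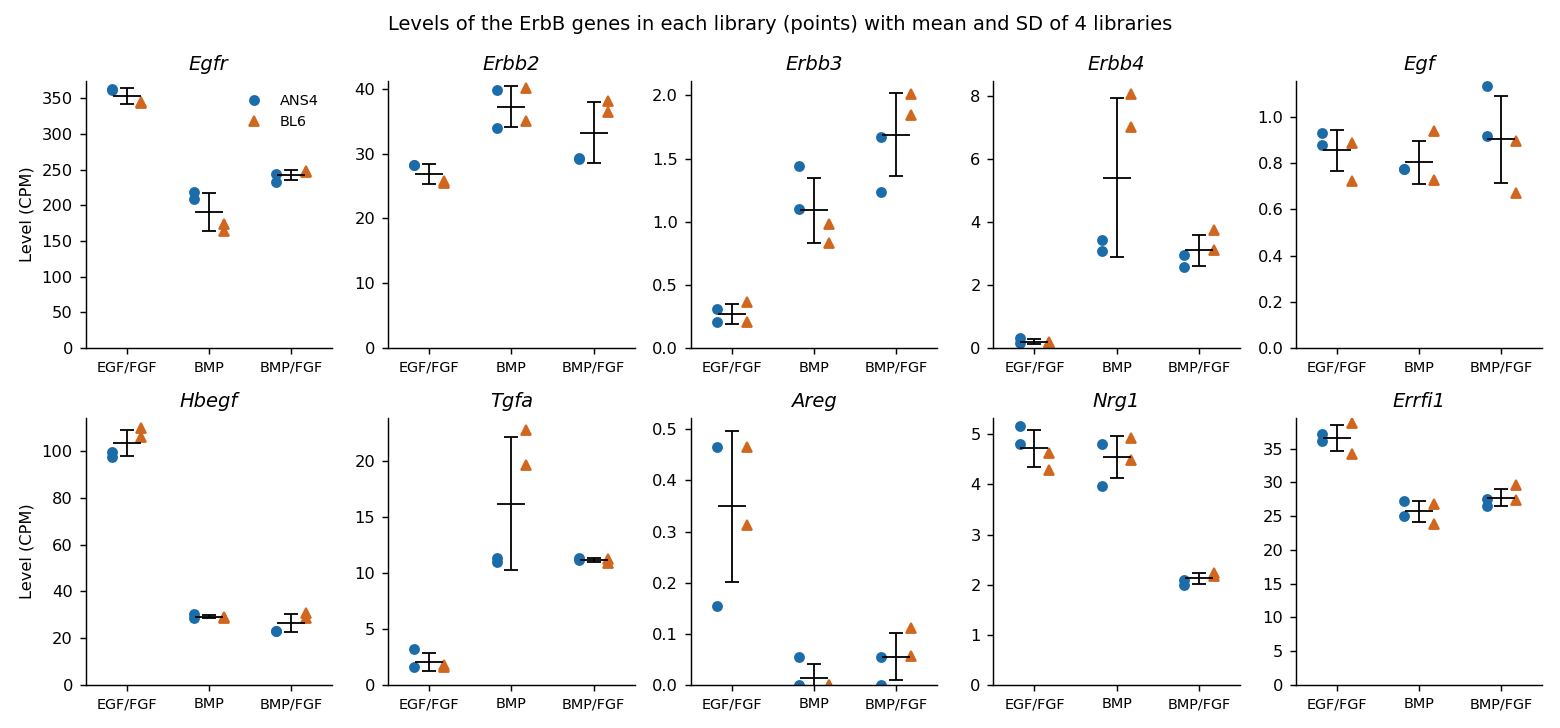
Levels in CPM (linear axes starting at 0) of the 10 ErbB genes in EGF/FGF, BMP and BMP/FGF. Circles are ANS4 libraries and triangles BL6 libraries, and bars give the mean and SD of 4 libraries. Egfr was highest in EGF/FGF and lowest in BMP, Erbb4 and Tgfa were lowest in EGF/FGF and highest in the 2 BMP libraries of BL6, and Nrg1 was low only in BMP/FGF.

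Upon BMP treatment, transcripts of Egfr, Hbegf and Errfi1 fell relative to EGF/FGF, transcripts of Erbb2, Erbb3, Erbb4 and Tgfa rose, and Egf and Nrg1 did not pass the test. Of the 9 tested genes 4 were higher and 3 lower at a false discovery rate (FDR) under 0.05, in a comparison in which 79.6% of all tested genes passed (40.8% higher and 38.8% lower). In BMP/FGF against EGF/FGF 4 were higher and 4 lower, beside 78.9% of all tested genes (40.9% higher and 38.0% lower). Between BMP/FGF and BMP 2 were higher and 3 lower, beside 41.4% of all tested genes (20.1% higher and 21.3% lower). The median log2 fold change of the 9 genes was -0.05, 0.08 and -0.15 in these comparisons, against 0.02, 0.02 and -0.004 over all tested genes. Levels did not overlap between the conditions for 7 of the 9 genes in BMP against EGF/FGF, for 8 in BMP/FGF against EGF/FGF and for 2 in BMP/FGF against BMP, beside 71.1%, 75.8% and 35.6% of all tested genes. The first 2 comparisons share the EGF/FGF libraries, and all 3 use 4 libraries per condition.

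**Figure D2:**
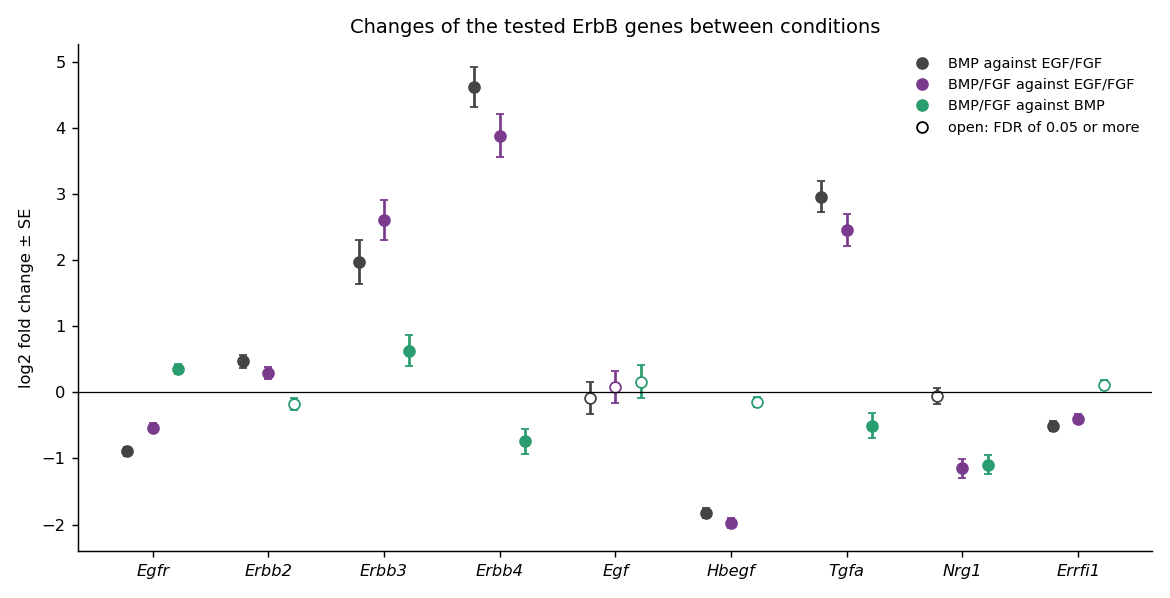
Log2 fold changes (y axis, linear) with SE of the 9 tested ErbB genes in the 3 comparisons, from edgeR fits over all 12 libraries. Filled points passed FDR 0.05 and open points did not. Erbb4, Tgfa and Erbb3 stand highest and Hbegf lowest against EGF/FGF, and Nrg1 is lowest between BMP/FGF and BMP.

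The 250 bases before the transcription start are shown for the receptor that fell, Egfr, and for the receptor and the ligand with the largest rises in BMP, Erbb4 and Tgfa. They come from RefSeq on GRCm38.p6, which held starts for 7 of the 10 genes. The windows lie at chr11:16751953-16752202 on the plus strand (Egfr), chr1:69108060-69108309 on the minus strand (Erbb4) and chr6:86194972-86195221 on the plus strand (Tgfa). Each is written 5′ to 3′ on the strand of the gene, and capitals mark a match to CCGGAA, the core bound by ETS factors, on either strand.
Egfr: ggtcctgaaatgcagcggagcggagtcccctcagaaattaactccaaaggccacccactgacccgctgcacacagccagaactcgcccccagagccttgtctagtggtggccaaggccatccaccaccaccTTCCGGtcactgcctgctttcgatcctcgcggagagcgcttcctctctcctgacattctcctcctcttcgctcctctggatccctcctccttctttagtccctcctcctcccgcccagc
Erbb4: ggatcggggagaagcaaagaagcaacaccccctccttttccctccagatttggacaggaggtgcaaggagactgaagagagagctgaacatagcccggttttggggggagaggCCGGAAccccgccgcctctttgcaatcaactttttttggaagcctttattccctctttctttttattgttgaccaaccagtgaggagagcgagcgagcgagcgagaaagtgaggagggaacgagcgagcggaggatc
Tgfa: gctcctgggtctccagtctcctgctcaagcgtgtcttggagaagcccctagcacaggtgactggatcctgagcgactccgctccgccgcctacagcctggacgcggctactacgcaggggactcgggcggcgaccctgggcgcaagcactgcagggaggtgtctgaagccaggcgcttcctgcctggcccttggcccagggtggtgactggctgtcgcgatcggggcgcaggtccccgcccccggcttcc
The core was present once in the Egfr window, once in the Erbb4 window and not in that of Tgfa, and 12% of the 32851 mouse promoters in the table held it. Neither GGCGCC, a GC-rich SMAD element, nor TGANTCA, the AP-1 site, was found in any of the 3 windows, and 9.59% and 6.75% of all promoters held them on either strand. GC content was 60.8% for Egfr, 54.0% for Erbb4 and 69.2% for Tgfa, with a median of 52.4% over all promoters. These matches describe the letters of the windows and not binding.

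Egfr (ENSMUSG00000020122, chr11:16752203-16918158, plus strand, GRCm38) encodes the receptor of EGF. Its level in EGF/FGF was 363 and 362 CPM in ANS4 and 345 and 343 in BL6. In BMP it was 208 and 218.5 CPM in ANS4 and 174 and 163 in BL6, and in BMP/FGF it was 244 and 233 in ANS4 and 247 and 248 in BL6. The 3 conditions did not overlap, with EGF/FGF highest, BMP/FGF between and BMP lowest in each line. Means were 353 ± 10.8, 191 ± 26.5 and 243 ± 6.997 CPM (SD, n = 4). Egfr fell by 0.89 on the log2 scale (SE 0.07) from EGF/FGF to BMP (edgeR quasi-likelihood test, Benjamini-Hochberg FDR 1.88e-09) and by 0.54 (SE 0.07) to BMP/FGF (FDR 1.63e-06). From BMP to BMP/FGF it rose by 0.36 (SE 0.07, FDR 0.000677). The exact two-sided permutation test of each of these 3 differences gave p = 0.0286, the smallest that 4 against 4 libraries can give, or 0.0452 after adjustment over the 30 tests of the 10 genes. In these bulk libraries fewer cells expressing a gene and less RNA per cell cannot be told apart. The cell cycle markers moved with the fall from EGF/FGF but not with the rise between the quiescent conditions, where all 8 were lower in BMP/FGF than in BMP, and their part in the Egfr difference was not tested.

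Erbb2 (ENSMUSG00000062312, chr11:98412470-98437716, plus strand), the partner receptor, changed least among the receptors. It was 28.2 and 28.3 CPM in ANS4 EGF/FGF and 25.4 and 25.7 in BL6 EGF/FGF, against 34.0 and 39.8 (ANS4) and 35.1 and 40.2 (BL6) in BMP. The BMP/FGF cultures gave 29.1 and 29.3 CPM in ANS4 and 38.0 and 36.5 in BL6. All 8 quiescent cultures thus lay above the 4 proliferating ones, while BMP and BMP/FGF overlapped. The rise was 0.47 (SE 0.09, FDR 0.00016) in BMP and 0.30 (SE 0.09, FDR 0.00742) in BMP/FGF on the log2 scale, and the difference of BMP/FGF from BMP was -0.17 (SE 0.09, FDR 0.149). In ANS4 alone the rise in BMP/FGF was 0.04 (FDR 0.656), and BMP/FGF was lower than BMP by a log2 fold change of -0.34 (FDR 0.00696).

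Erbb3 (ENSMUSG00000018166, chr10:128567523-128589652, minus strand), a neuregulin receptor, was scarce in all cultures. EGF/FGF libraries held 4 and 6 counts (ANS4) and 7 and 4 (BL6), BMP libraries 20 and 26 and then 19 and 16, and BMP/FGF libraries 23 and 31 and then 36 and 33. EGF/FGF was lowest without overlap, and the BMP and BMP/FGF libraries overlapped. Mean levels were 0.272 ± 0.078, 1.09 ± 0.257 and 1.69 ± 0.332 CPM (SD, n = 4). Erbb3 rose by 1.97 (SE 0.33, FDR 2.63e-05) in BMP and by 2.61 (SE 0.31, FDR 4.11e-07) in BMP/FGF. The rise of 0.63 from BMP to BMP/FGF passed narrowly (SE 0.24, FDR 0.0417) and did not pass in 13 of 22 other settings, with 0.19 and FDR 0.682 in ANS4 alone. It was lost on leaving out ANS4 EGF/FGF replicate 2, ANS4 BMP replicate 1, ANS4 BMP/FGF replicate 2 or any BL6 library of BMP or BMP/FGF, with FDR from 0.0507 to 0.138. The exact permutation test between BMP/FGF and BMP, which has no line term, did not pass (p = 0.0571, adjusted p = 0.0857).

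Erbb4 (ENSMUSG00000062209, chr1:68032186-69108059, minus strand), which binds neuregulins and HB-EGF, had the largest fitted change of the 9 tested genes. In EGF/FGF it was near the floor, with 3 and 6 counts in ANS4 and 3 and 4 in BL6. In BMP it reached 56 and 62 counts in ANS4 and 156 and 135 in BL6, and in BMP/FGF 55 and 48 in ANS4 and 56 and 67 in BL6. No quiescent library overlapped the EGF/FGF libraries, and the 2 BL6 BMP libraries stood above all others. In CPM the means were 0.207 ± 0.073, 5.41 ± 2.52 and 3.10 ± 0.481 (SD, n = 4). Its log2 fold change was 4.62 (SE 0.30, FDR 1.07e-10) in BMP, a fitted 24.6-fold rise, and 3.88 (SE 0.32, FDR 3.81e-09), a fitted 14.8-fold rise, in BMP/FGF. BMP/FGF was lower than BMP by a log2 fold change of -0.74 (SE 0.19, FDR 0.00479), but in ANS4 alone the change was -0.23 (FDR 0.457). The exact permutation test between BMP/FGF and BMP, which has no line term, did not pass (p = 0.171, adjusted p = 0.233).

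Against EGF/FGF, markers of several other cell types rose as Erbb3 and Erbb4 did. In these comparisons 79.6% (BMP) and 78.9% (BMP/FGF) of all tested genes passed. The summed level of 8 oligodendrocyte lineage markers lay at 237.5 to 297 CPM with EGF/FGF, 699.7 to 791 with BMP and 775 to 799 with BMP/FGF, and of the 5 tested 4 rose and 1 fell in each quiescent condition. Of the defining genes of that lineage Sox10 held at most 12 counts and Mog at most 5 in any library. For 7 neuron markers the sums were 556 to 589, 1127 to 1745 and 868 to 934 CPM, and all 5 tested rose in both. Dcx, a gene of migrating neuroblasts, averaged 1.29 CPM in EGF/FGF, 279.5 in BMP and 49.9 in BMP/FGF, and Rbfox3, a mark of mature neurons, held at most 4 counts in any library. Of 9 astrocyte markers 7 rose and 1 fell in BMP, and 8 rose and 1 fell in BMP/FGF. All 3 tested ependyma markers rose in both. The summed fibroblast and mural markers were higher in both, but of the 4 tested 2 rose and 1 fell in BMP, and 3 rose and 1 fell in BMP/FGF. Summed microglial and endothelial markers were lower in both than in EGF/FGF, though the tested markers did not all fall. Of 2 tested microglial markers 0 rose and 1 fell in BMP, and 1 rose (P2ry12) and 1 fell (Itgam) in BMP/FGF. Of 2 tested endothelial markers 1 rose (Kdr) and 1 fell (Flt1) in BMP, and 0 rose and 1 fell in BMP/FGF. Between BMP/FGF and BMP the 2 receptors parted, with Erbb3 narrowly higher and Erbb4 lower in BMP/FGF. There all 5 tested neuron markers were lower, beside 20.1% of all tested genes higher and 21.3% lower. Higher and lower were 5 and 1 of 9 astrocyte, 1 and 1 of 5 oligodendrocyte lineage and 0 and 1 of 3 ependyma markers. They were 1 and 0 of 2 microglial, 1 and 1 of 2 endothelial, and 2 and 0 of 4 fibroblast and mural markers. The part of such cells in the receptor changes was not tested.

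Among the 4 tested ligands, Hbegf (ENSMUSG00000024486, on chromosome 18) had the largest fall against EGF/FGF. The gene encodes HB-EGF, a membrane-bound growth factor for EGFR and ERBB4. It was 97.7 and 99.9 CPM (ANS4) and 110.0 and 106.0 CPM (BL6) in EGF/FGF, then 28.6 and 30.2 (ANS4) and 29.0 and 28.8 (BL6) in BMP, and 22.9 and 23.2 (ANS4) and 28.7 and 30.5 (BL6) in BMP/FGF. EGF/FGF stood above both quiescent conditions in every library, and these overlapped each other. Hbegf fell 3.54-fold (log2 fold change -1.83, SE 0.07, FDR 1.26e-13) in BMP and 3.94-fold (-1.98, SE 0.07, FDR 5.04e-14) in BMP/FGF. BMP/FGF differed from BMP by -0.15 (SE 0.08, FDR 0.115).

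Tgfa (ENSMUSG00000029999, chr6:86195223-86275719, plus strand), another EGFR ligand, moved the opposite way. EGF/FGF libraries gave 1.55 and 3.20 CPM in ANS4 and 1.56 and 1.81 in BL6, BMP libraries 11.0 and 11.3 in ANS4 and 19.7 and 22.8 in BL6, and BMP/FGF libraries 11.2 and 11.3 in ANS4 and 11.3 and 10.9 in BL6. All quiescent libraries were above EGF/FGF, and the BL6 BMP libraries were again the highest. The rise was 7.77-fold (log2 2.96, SE 0.23, FDR 1.81e-09) in BMP and 5.49-fold (log2 2.46, SE 0.24, FDR 3.63e-08) in BMP/FGF. Between BMP/FGF and BMP the change was -0.50 (SE 0.19, FDR 0.0411). By line it was -0.94 in BL6 and 0.01 in ANS4, and 10 of 22 other settings lost the call. Without any single BL6 library of BMP or BMP/FGF its FDR was 0.106 to 0.157. The exact permutation test between BMP/FGF and BMP, which has no line term, did not pass (p = 0.2, adjusted p = 0.261).

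Nrg1 (ENSMUSG00000062991, chr8:31814551-32884029, minus strand) encodes neuregulin-1. In EGF/FGF it was 5.17 and 4.80 CPM in ANS4 and 4.63 and 4.29 in BL6, and in BMP it was 3.97 and 4.81 in ANS4 and 4.92 and 4.48 in BL6. BMP/FGF cultures held 1.99 and 2.10 CPM in ANS4 and 2.23 and 2.18 in BL6. EGF/FGF and BMP overlapped, and every BMP/FGF library lay below all other libraries. Nrg1 was 2.14-fold lower in BMP/FGF than in BMP (log2 fold change -1.10, SE 0.14, FDR 1.04e-05), with -1.10 in ANS4 and -1.09 in BL6, and the call held in each of 22 other settings. Against EGF/FGF the changes were -0.05 (SE 0.13, FDR 0.703) in BMP and -1.15 (SE 0.14, FDR 6.7e-07) in BMP/FGF. The annotation gives 12 coding transcripts of Nrg1, which the gene counts do not separate.

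Egf and Areg were expressed at a low level. Egf (ENSMUSG00000028017, chr3:129677565-129755316, minus strand) held 12 to 21 counts in all 12 libraries, with means of 0.854 ± 0.090, 0.803 ± 0.093 and 0.903 ± 0.188 CPM (SD, n = 4), all overlapping. Its log2 fold changes were -0.08 (SE 0.24, FDR 0.764) in BMP, 0.08 (SE 0.24, FDR 0.77) in BMP/FGF and 0.16 (SE 0.24, FDR 0.625) between them. Areg (ENSMUSG00000029378, chr5:91139599-91148432, plus strand), the gene of amphiregulin, held 3, 9, 6 and 9 counts in EGF/FGF libraries, 0, 1, 0 and 0 in BMP and 0, 1, 2 and 1 in BMP/FGF. Levels in EGF/FGF did not overlap with either other condition (exact permutation test, p = 0.0286 each, adjusted p = 0.0452). The summed EGF/FGF counts exceeded those of BMP/FGF 6.37 times after scaling (exact 95% interval 2.22 to 25.1) and those of BMP 26.1 times (4.301 to 1068), intervals that cover counting error only.

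Ligand genes outside the set gave few further changes. Btc, which encodes betacellulin, rose by 0.78 (SE 0.23, FDR 0.0113) between BMP and BMP/FGF, while Nrg2 and Nrg4 passed in none of the 3 comparisons. Ereg, the gene of epiregulin, was below the filter with 53 counts over the EGF/FGF libraries, 6 over BMP and 5 over BMP/FGF. Epgn held 19, 7 and 1 counts and Nrg3 at most 2 in any library.

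Errfi1 (ENSMUSG00000028967, chr4:150853919-150868892, plus strand) encodes MIG6, an inhibitor that binds the EGFR kinase domain and is itself induced by the pathway. It was 36.1 and 37.2 CPM in ANS4 EGF/FGF and 38.8 and 34.2 in BL6 EGF/FGF, 27.2 and 25.1 (ANS4) and 26.7 and 23.8 (BL6) in BMP, and 27.5 and 26.5 (ANS4) and 29.6 and 27.4 (BL6) in BMP/FGF. The proliferating cultures were above all quiescent ones, which overlapped among themselves. Errfi1 fell by 0.51 (SE 0.07, FDR 3.66e-06) in BMP and by 0.40 (SE 0.07, FDR 6.12e-05) in BMP/FGF, and the 2 differed by 0.11 (SE 0.07, FDR 0.239).

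To compare genes with each other, CPM were divided by the length of the longest coding transcript. Whether the deposited counts had already been scaled for length is not given in the sources used here, and every level, share and ratio per length below assumes that they had not. On this scale Egfr was the most abundant receptor in every condition (34.6, 18.7 and 23.8 CPM per kb in EGF/FGF, BMP and BMP/FGF), followed by Erbb2 (5.37, 7.43 and 6.63). Erbb3 (0.045, 0.181 and 0.281) and Erbb4 (0.017, 0.449 and 0.258) were far below, and their order turned between BMP, where Erbb4 was the higher, and EGF/FGF. In BMP/FGF their ranges overlapped. With the longest coding sequence as the length, Erbb4 was above Erbb3 in BMP/FGF without overlap (0.659 to 0.953 against 0.308 to 0.501), and in EGF/FGF the 2 overlapped, so that only the order in BMP held with each length used. Hbegf led the ligands (43.5, 12.3 and 11.1 CPM per kb), and Tgfa came second in both quiescent conditions (3.58 and 2.47) while Nrg1 did so in EGF/FGF (0.872). With the longest coding sequence Tgfa was second in EGF/FGF as well, at 4.26 against 2.25 for Nrg1, and the ranges of Tgfa and Hbegf overlapped in BMP. The level of Egfr relative to Hbegf depends on the length used, since its longest transcript has 10208 bases and its coding transcripts average 4538 bases, which gives 77.8 CPM per kb in EGF/FGF.

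**Figure D3:**
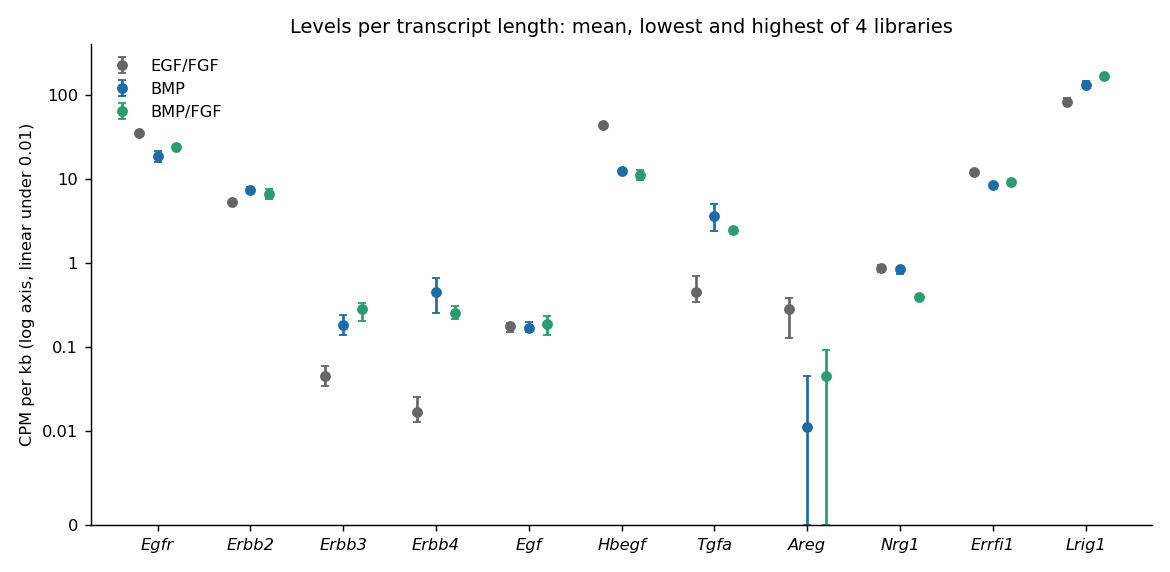
Levels of the 10 ErbB genes and Lrig1 in CPM per kb of the longest coding transcript (log axis, linear under 0.01). Points are means and bars the lowest and highest of 4 libraries. With this length Egfr leads the receptors and Hbegf the ligands in all conditions, and Lrig1 stands above all of them.

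The make-up of receptor transcripts shifted accordingly. Egfr held 86.4% ± 0.319 of the summed receptor level per length in EGF/FGF, 69.7% ± 3.99 in BMP and 76.9% ± 2.18 in BMP/FGF (SD, n = 4), without overlap. Each of the 3 differences had p = 0.0286 in the exact permutation test, or 0.0343 after adjustment over 12 receptor shares. Erbb2 took up most of the remainder, at 13.4%, 27.9% and 21.3%. Among the 5 ligands Hbegf held 96.0% ± 0.654 in EGF/FGF, 73.1% ± 5.98 in BMP and 78.0% ± 2.54 in BMP/FGF, and Tgfa 0.995%, 20.9% and 17.6%. With the mean transcript length the Egfr share was 93.5%, 83.4% and 88.1%, in the same order, and that of Hbegf 92.8%, 59.0% and 65.7%. The Erbb2 share was then 6.45%, 14.9% and 10.9%, and that of Tgfa 1.76%, 30.6% and 27.1%. With the longest coding sequence the Tgfa share was 2.47%, 39.9% and 35.2%.

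Lrig1, the receptor brake on which the study centres, rose where Egfr fell against EGF/FGF, and rose together with Egfr between the quiescent conditions. Lrig1 averaged 409.6 ± 34.6 CPM in EGF/FGF, 646 ± 49.2 in BMP and 829 ± 34.7 in BMP/FGF (SD, n = 4), with no overlap. Changes were 0.66 (SE 0.07, FDR 6.1e-08) in BMP and a further 0.36 (SE 0.07, FDR 0.000357) from BMP to BMP/FGF, where Egfr also rose by 0.36. With the longest coding transcript as the length, the ratio of Lrig1 to Egfr was 2.39 in EGF/FGF, 7.01 in BMP and 7.03 in BMP/FGF. On the log2 scale this was 1.25 ± 0.085, 2.81 ± 0.1498 and 2.81 ± 0.029 (SD, n = 4), and both quiescent conditions differed from EGF/FGF (exact permutation test, p = 0.0286, adjusted p = 0.0429 over 3 tests). BMP/FGF and BMP differed by 0.003 (exact permutation p = 0.971), with 0.11 in ANS4 and -0.10 in BL6. In BL6 the BMP values (2.815 and 3.014) overlapped those of BMP/FGF (2.833 and 2.793), and in ANS4 they did not. A line difference in the ratio was not tested. The level of the ratio depends on the length, with log2 values of 0.10, 1.66 and 1.66 for the mean transcript length and 0.36, 1.92 and 1.92 for the longest coding sequence, while the differences between conditions do not.

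The lines differed in 6 of the 27 changes tested with a line by condition term. These were 1 in BMP against EGF/FGF, 1 in BMP/FGF against EGF/FGF and 4 in BMP/FGF against BMP, comparisons in which 9.02%, 4.98% and 13.5% of all tested genes differed between the lines. From BMP to BMP/FGF, Egfr rose by 0.55 in BL6 and 0.16 in ANS4 (difference 0.39, SE 0.08, FDR 0.00536). Tgfa fell by 0.94 in BL6 and was 0.01 in ANS4 (difference -0.94, SE 0.21, FDR 0.00721), and Erbb4 fell by 1.14 in BL6 and was -0.23 in ANS4 (difference -0.90, SE 0.28, FDR 0.038). Hbegf was -0.35 in ANS4 and 0.04 in BL6 (difference 0.39, SE 0.11, FDR 0.0263). In BMP, both BL6 libraries lay below those of ANS4 for Egfr and above them for Erbb4 and Tgfa, whereas for Hbegf the lines parted in BMP/FGF, where BL6 was the higher. Nrg1 changed by -1.10 and -1.09 in the lines (difference 0.01, SE 0.27, FDR 0.988).

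**Figure D4:**
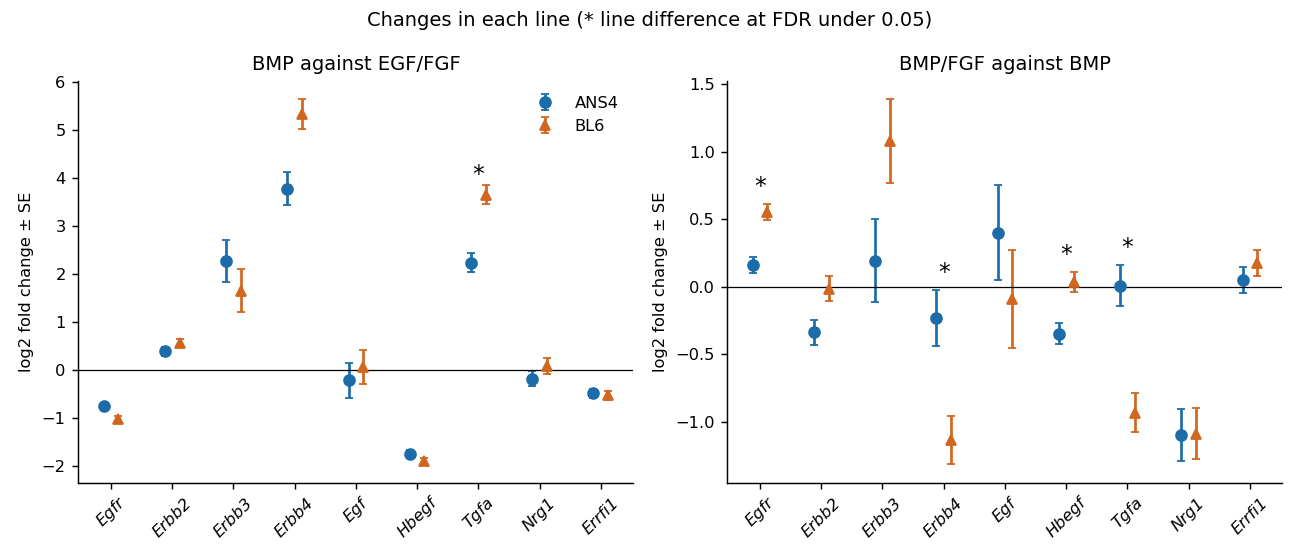
Log2 fold changes (y axes, linear, different ranges) with SE of the 9 tested genes in ANS4 (circles) and BL6 (triangles), in BMP against EGF/FGF (left) and BMP/FGF against BMP (right). Asterisks mark a difference between the lines at FDR under 0.05, for Tgfa on the left and for Egfr, Erbb4, Hbegf and Tgfa on the right.

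Against EGF/FGF the lines differed for Tgfa in BMP, which rose by 2.23 in ANS4 and 3.65 in BL6 (difference 1.43, SE 0.31, FDR 0.0089), and for Erbb2 in BMP/FGF, at 0.05 in ANS4 and 0.54 in BL6 (difference 0.50, SE 0.13, FDR 0.0373). Without replicate 2 of ANS4 EGF/FGF the Tgfa difference was 0.81 (FDR 0.162), and without replicate 1 of BL6 EGF/FGF it was 1.32 (FDR 0.0528). The differences of Egfr and Tgfa between BMP/FGF and BMP passed in each of 19 other settings, while those of Hbegf, Erbb4 and Erbb2 passed in 13, 9 and 8 of 19. The Hbegf difference was lost without ANS4 BMP replicate 2, either ANS4 BMP/FGF library or BL6 BMP/FGF replicate 2 (FDR 0.0775 to 0.106). That of Erbb4 was lost without any ANS4 library of BMP or BMP/FGF, BL6 BMP replicate 1 or either BL6 BMP/FGF library (FDR 0.0646 to 0.162), and that of Erbb2 without any library of EGF/FGF or BMP/FGF (FDR 0.0936 to 0.147).

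Genes around the receptors were grouped by their role, and their counts stand beside the shares of all tested genes given above. Of 13 tested genes of ligand release, the proteases and their partners, 2 were higher and 9 lower in BMP than in EGF/FGF, with a median log2 fold change of -0.46, and the comparison of BMP/FGF with EGF/FGF had 2 higher and 8 lower. The metalloproteinases Adam12 (-3.69, SE 0.08, FDR 1.14e-16) and Adam19 (-2.35, SE 0.07, FDR 2.66e-15) had the largest falls, and Bace1, the protease that processes neuregulin-1, rose by 0.50 (SE 0.06, FDR 2.3e-07). Between BMP and BMP/FGF 4 rose and 1 fell, among them Rhbdf1 (0.62, SE 0.09, FDR 2.16e-05), a rhomboid partner of ADAM17, and the tetraspanin Cd9 (0.61, SE 0.07, FDR 3.23e-06). The falling gene was Adam19 (-0.21, SE 0.07, FDR 0.0271).

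Of 21 tested genes listed as receptor brakes 7 were higher and 10 lower in BMP than in EGF/FGF, with a median of -0.10. In BMP/FGF against EGF/FGF the counts were 5 and 8. The list also holds Usp8, Lrig2 and Lrig3, and the action of its genes on ErbB receptors was not tested. Spry4 (-3.62, SE 0.07, FDR 5.17e-17) and Spry1 (-3.23, SE 0.11, FDR 1.19e-14), Sprouty inhibitors of the RAS pathway, fell, and the LRIG family member Lrig2 rose by 1.03 (SE 0.08, FDR 6.72e-10). From BMP to BMP/FGF 11 rose and 7 fell, with a median of 0.20. Rises included the phosphatase gene Ptprj (0.98, SE 0.06, FDR 5.22e-09) and Spry4 (0.98, SE 0.08, FDR 3.59e-08). Cblb, which encodes a ubiquitin ligase, fell (-0.53, SE 0.06, FDR 1.57e-06), as did Ptprk (-1.31, SE 0.30, FDR 0.00191), another phosphatase gene with at most 26 counts in any library, which had risen by 1.17 (SE 0.29, FDR 0.00119) in BMP.

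**Figure D5:**
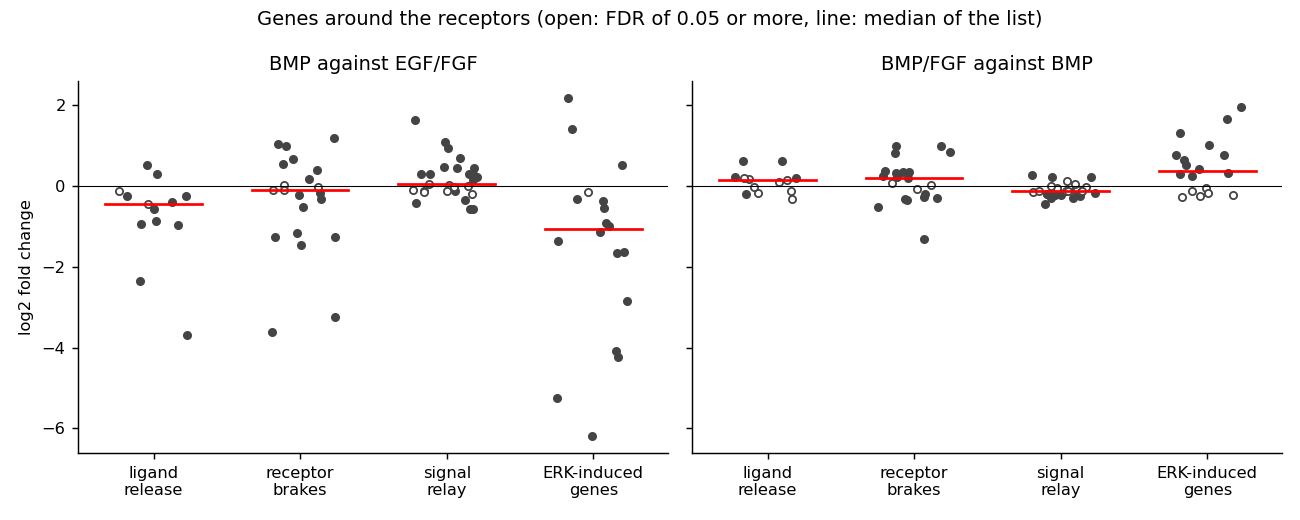
Log2 fold changes (shared linear y axis) of the tested genes of 4 lists in BMP against EGF/FGF (left) and BMP/FGF against BMP (right). Each point is a gene, filled at FDR under 0.05, and red lines are list medians, which were -1.07 and 0.36 for the ERK-induced genes.

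The ERK-induced genes, which report on the pathway below the receptors and on FGF signaling alike, were mostly lower in quiescence and partly higher again with FGF2. Of 18 tested, 3 were higher and 14 lower in BMP than in EGF/FGF (median -1.07), and 12 were higher and 0 lower in BMP/FGF than in BMP (median 0.36). At an unadjusted p under 0.05 edgeR, DESeq2 and limma-trend each found 1 lower there. DESeq2 called 12 higher and 0 lower, and limma-trend on the deposited log2 values called 11 higher and 0 lower. In BMP/FGF against EGF/FGF 2 were higher and 14 lower. Against EGF/FGF the largest falls were those of Fosl1 (-6.20, SE 0.39, FDR 7.41e-11), an AP-1 gene left with 6 counts over the BMP libraries, and the cyclin gene Ccnd1 (-5.24, SE 0.14, FDR 9.38e-16). Fos (2.17, SE 0.16, FDR 6.75e-10) and Egr2 (1.40, SE 0.10, FDR 2.96e-10), both immediate early genes, rose. Between BMP and BMP/FGF the largest rises were in Fosl1 (1.96, SE 0.68, FDR 0.029), with 24 counts over the BMP/FGF libraries, and the ETS factor gene Etv4 (1.65, SE 0.13, FDR 4.33e-08). Fos, among the 6 that did not pass there, was at -0.28 (SE 0.15, FDR 0.155).

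Of 27 tested relay genes, which act between receptor and nucleus, 13 were higher and 6 lower in BMP than in EGF/FGF (median 0.04), 10 were higher and 10 lower when BMP/FGF was compared with EGF/FGF, and 3 were higher and 10 lower in BMP/FGF than in BMP (median -0.13). The adaptor gene Gab1 (1.62, SE 0.08, FDR 1.23e-12) and Stat5a (1.08, SE 0.15, FDR 2.06e-06) had the largest rises in BMP, and Pik3cb (-0.59, SE 0.08, FDR 1.32e-06) and Hras (-0.58, SE 0.07, FDR 2.78e-07) the largest falls. From BMP to BMP/FGF, Nras (0.27, SE 0.05, FDR 0.000909) and the kinase gene Araf (0.22, SE 0.07, FDR 0.0132) rose, and Pik3cb (-0.46, SE 0.08, FDR 0.000201) and Gab1 (-0.31, SE 0.07, FDR 0.00263) fell.

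The genes whose levels followed the receptors and ligands most closely were taken by Pearson r of log2 CPM over the 12 libraries among 12458 genes. For Egfr they were Chchd1 (r = 0.993), Chst7 (0.993), Klhl23 (0.991), Rps27l (0.990) and P4hb (0.990). The closest gene was Tspan4 for Erbb2 (0.951), Pdlim5 for Erbb3 (0.984), Slc24a3 for Erbb4 (0.994), Nomo1 for Hbegf (0.998), Lims2 for Tgfa (0.993), Ccnd2 for Nrg1 (0.966) and Ddx23 for Errfi1 (0.985). For Egf the best match, Dok7, reached 0.797. The libraries share 3 conditions and 2 lines, so these values describe the pattern over groups.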

How the data were processed

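RNA-seq was measured in 12 mouse NSC libraries made with a low input kit for BGISEQ-500RS, from RNA with a RIN of at least 9.6. The authors trimmed reads with Trim Galore 0.5.0, quantified them with kallisto 0.44.0 on the mm10 transcriptome, summarized them with Tximport, and deposited estimated counts per gene as whole numbers. A second deposited table holds log2 values from the regularized logarithm of DESeq2 1.27.32. Strand handling is not given in the sources used here.

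Counts were filtered with filterByExpr (minimum count 10), scaled by TMM and fitted with edgeR 4.0.16 (glmQLFit, glmQLFTest, two-sided) on all libraries, with condition and line as terms and, for line differences, their interaction. FDR is Benjamini-Hochberg over 13312 genes, called under 0.05. Exact permutation tests divided 8 libraries into 4 and 4 in 70 ways, using log2 of CPM plus 0.1 for levels. Transcript lengths and gene positions came from GENCODE vM21 on GRCm38. The fits were tested on simulated counts. Alternatives used DESeq2 1.42.0, limma 3.58.1, other scaling and filters, single lines, and leaving out libraries in turn.

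The genes and lists were chosen with earlier results of these data known. Named were all 10 genes, Lrig1, Cd9, and from each list the 2 largest rises and falls past the threshold in either BMP/FGF against BMP or BMP against EGF/FGF, and the genes of closest pattern (mean of at least 1 CPM). Besides the sums given in the report, summed levels were 1686 to 2082, 4870 to 6399 and 8150 to 8345 CPM for 9 astrocyte markers in EGF/FGF, BMP and BMP/FGF. Lists for microglia, endothelium, fibroblast and mural cells and ependyma gave lower sums in the same order. Ependyma markers were at 63.0 to 78.1, 198 to 239 and 199.5 to 212 CPM, endothelial markers at 39.1 to 47.1, 5.58 to 9.29 and 15.0 to 19.0, fibroblast and mural markers at 4.99 to 5.95, 6.06 to 7.41 and 9.54 to 13.6, and microglial markers at 9.56 to 14.7, 5.31 to 6.18 and 7.15 to 9.38.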

Additional observations from a re-analysis of the deposited data

Results flagged for a closer look

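Within the 4 libraries of each condition, a single library far from the rest was looked for. The measures examined were the levels of the 9 tested genes, the log2 ratio of Lrig1 to Egfr and the Egfr share of receptor levels. They made 33 groups in all. Chance would mark about 1 in 20 if the 4 values of a group shared a common spread and mean. Each group instead holds 2 libraries of each line, and line differences can widen its range, so this rate does not strictly apply. The 1 found was Tgfa in replicate 2 of ANS4 EGF/FGF, at 3.203 CPM against 1.55 to 1.81 CPM in the other libraries of that condition.

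The lines differed in 6 changes by the line by condition term of edgeR (BL6 minus ANS4, log2). From BMP to BMP/FGF the difference was 0.3927 for Egfr (FDR 0.00536), -0.9044 for Erbb4 (FDR 0.038), 0.3853 for Hbegf (FDR 0.0263) and -0.9441 for Tgfa (FDR 0.00721). For Tgfa in BMP against EGF/FGF it was 1.425 (FDR 0.0089), and it was 0.8106 (FDR 0.162) without the Tgfa library named above. For Erbb2 in BMP/FGF against EGF/FGF it was 0.4961 (FDR 0.0373). What set the lines apart was not tested.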

How the results depend on the processing

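The changes of Egfr, Erbb3, Erbb4, Hbegf, Tgfa and Errfi1 against EGF/FGF, that of Erbb2 in BMP against EGF/FGF, and those of Egfr and Nrg1 between BMP/FGF and BMP kept their direction and passed in each of 22 other settings, and Erbb2 in BMP/FGF against EGF/FGF in all but ANS4 alone. One setting, limma-trend on the deposited log2 values, was chosen after seeing the data. Scaling moved the median of all genes by under 0.1. The number of genes higher in BMP/FGF than in BMP was 1 in place of 2 with no filter, the Wald test of DESeq2, library size only, only the 8 libraries compared and ANS4 alone, Erbb3 being lost, and 1 to 2 when single libraries were left out. Line differences numbered 0 in place of 1 in BMP/FGF against EGF/FGF with library size only and no filter (0 to 1 without single libraries), and 2 in place of 1 in BMP against EGF/FGF with DESeq2 (0 to 2). In BMP/FGF against BMP they numbered 2 to 5 without single libraries, in place of 4. Over all genes, line differences in BMP against EGF/FGF were 615 and in BMP/FGF against EGF/FGF 1685 with only the 8 libraries compared, in place of 1201 and 663. Without single libraries they ranged from 612 to 2437 and from 184 to 1369, and from 897 to 2833 in place of 1801 in BMP/FGF against BMP. The highest counts all came without replicate 1 of BL6 BMP, a fit that leaves a single library in that group. In BMP/FGF against EGF/FGF, leaving out replicate 2 of BL6 BMP gave nearly the same count. The cause was not tested.

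Within a line 2 against 2 libraries cannot give an exact p below 0.333. There the change of the Egfr share was -13.4 points (ANS4) and -20.1 (BL6) in BMP against EGF/FGF, -7.39 and -11.6 in BMP/FGF against EGF/FGF, and 6.02 and 8.52 in BMP/FGF against BMP, which without single libraries ranged from 5.61 to 8.66 (exact permutation p = 0.0571 without any 1 of the BMP/FGF libraries). The log2 ratio of Lrig1 to Egfr changed by 1.39 and 1.72 in BMP and by 1.502 and 1.616 in BMP/FGF, and between these by -0.10 in BL6 and by -0.04602 to 0.07141 without single libraries.

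Sign changes were found among differences near 0 and among some larger ones. The larger ones in the main fits were Tgfa between the quiescent conditions (-0.50) and 2 line differences in BMP/FGF against EGF/FGF. These were the line differences of Erbb3 (0.27) and Tgfa (0.48). In BL6 alone, Egf was at 0.0324 in BMP against EGF/FGF, -0.0532 in BMP/FGF against EGF/FGF and -0.0856 between the quiescent conditions, Nrg1 at 0.0602 in BMP against EGF/FGF and Hbegf at 0.0387 between them, and in ANS4 alone Tgfa was at 0.0088. With limma, Egf in BMP/FGF against EGF/FGF was -0.003404 and the Nrg1 line difference between the quiescent conditions -0.088, which was -0.0655 with library size only. Without single libraries, that Nrg1 difference ranged from -0.13 to 0.15, Nrg1 in BMP against EGF/FGF ranged from -0.11 to 0.0066, Egf in BMP/FGF against EGF/FGF from -0.044 to 0.17, the line differences of Erbb3 and Tgfa in BMP/FGF against EGF/FGF ranged from -0.079 to 0.72 and from -0.13 to 0.91, and those of Errfi1 from -0.13 to 0.049 in BMP and from -0.0053 to 0.18 in BMP/FGF.

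The replicate numbers are not stated to pair cultures, and deviations of same-numbered cultures from their group means correlated at -0.073 to 0.11, so the numbers were taken as names. With the replicate block, 1 gene in place of 2 was higher in BMP/FGF than in BMP (Erbb3 at FDR 0.0504), Tgfa lost its call there (FDR 0.0631), and the line difference of Erbb2 in BMP/FGF against EGF/FGF (0 in place of 1) had FDR 0.0503 and that of Erbb4 0.0583.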
